A study of Mus musculus with 8 samples.

Results

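The mitochondrial respiratory chain genes described here are 30 nuclear genes of complexes I to IV and of cytochrome c, taken from a list of symbols and followed in Ly6C-high myeloid cells sorted from irradiated and sham-treated mouse tumours. A gene was measured where an array row, called a probe set, is annotated to that gene alone, and the brightest such row stood for the gene. By this rule 29 of the 30 genes were measured, among 22180 genes in all: 14 of complex I, 4 of complex II, 4 of complex III, 6 of complex IV and the cytochrome c gene Cycs. The 2 rows that name Cox6c also name another gene and were not used.

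The cells came from female C57BL/6 mice, labelled as 8 weeks old, that carried a subcutaneous tumour in place of one in the pancreas. All tumours were grown for 14 days from a single pancreatic cancer line, 152, made from tumours of mice with the alleles KrasLSL-G12D/+, Trp53LSL-R172H/+ and Pdx1-Cre (KPC). The tumours of 4 mice received 20 Gy, and those of the other 4 a sham treatment, with harvest 1 day later. From each mouse, cells that were CD45+ CD11b+ Ly6Chi were sorted and their RNA was put on 1 array, so each value below is 1 mouse and n is 4 in each group. The question was which transcripts of these inflammatory monocytes and macrophages are associated with tumour irradiation.

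The respiratory chain passes electrons from NADH (through complex I) and from succinate (through complex II) to ubiquinone, on through complex III and cytochrome c to complex IV, where oxygen is reduced. Complexes I, III and IV pump protons across the inner mitochondrial membrane, and ATP synthase uses that gradient. Most subunits are encoded in the nucleus and a few in mitochondrial DNA. In macrophages the balance between this chain and glycolysis is known to shift with inflammatory activation, and complex II also has a place in the citric acid cycle.

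Values are levels on the log2 scale, on which 1 unit is a 2-fold difference, and differences are irradiated minus sham. Array medians lay between 4.68 and 4.73, and all 29 measured genes had a mean above 4.70, the median of all rows. Of the sort's markers, Ptprc (CD45) had a sham mean of 11.66 ± 0.05 and an irradiated mean of 11.62 ± 0.09 (SD over 4 mice), and Itgam (CD11b) had means of 10.94 ± 0.18 and 11.12 ± 0.12. Ly6c2 (Ly6C) ran from 11.03 to 11.98 in sham mice and from 10.77 to 12.45 in irradiated mice. T and NK cell markers, 21 of 24 listed genes measured, were uneven between the arrays: their mean over sham mice 1 to 4 read 5.46, 7.50, 7.71 and 5.79, and over irradiated mice 1 to 4 it read 6.72, 5.44, 5.37 and 6.60. Neutrophil markers, all 15 measured, were highest in sham mouse 3, at 8.44, and lay between 6.22 and 7.48 on the other arrays.

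Nuclear respiratory chain genes are known targets of the transcription factors NRF1, GABP and YY1. Promoter windows of 300 bases, from 250 before to 50 after a start site in RefSeq on GRCm38.p6, were at hand for 21 of the 29 genes. For Cox5a and Cox7a2 that site lies inside the gene's span, away from its first base. The windows were searched on both strands for GCGCANGCG (NRF1), CCGGAAG (GABP) and AANATGGC (YY1), where N is any base. NRF1 letters were present for 6 of the 21 genes, against 6.25% of 32851 windows of all genes. GABP letters were present for 4 of 21 (8.86% of all windows) and YY1 letters for 5 of 21 (6.05%). At least 1 of the motifs was present for 13 of 21 genes, or in 14 of their 22 windows, against 18.6% of all windows. These are matches of letters only, and binding was not measured.

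The windows of Cycs and of the genes with the smallest p-values that held a match, Sdha and Cox7b, are shown to let a reader see how such a promoter is built. They lie at chr6:50566520-50566819 (minus strand), chr13:74350191-74350490 (minus strand) and chrX:106015450-106015749 (plus strand). Each is written 5′ to 3′ in the direction of the gene, with motif letters in capitals: NRF1 in Cycs (reverse strand) and 3 times in Sdha, and YY1 in Cox7b (reverse strand).
Cycs: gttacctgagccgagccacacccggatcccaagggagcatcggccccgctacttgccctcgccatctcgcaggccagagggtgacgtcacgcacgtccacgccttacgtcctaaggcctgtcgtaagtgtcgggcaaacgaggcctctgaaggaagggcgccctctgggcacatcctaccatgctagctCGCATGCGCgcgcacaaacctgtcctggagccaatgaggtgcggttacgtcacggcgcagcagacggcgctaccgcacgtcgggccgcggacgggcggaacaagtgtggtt
Sdha: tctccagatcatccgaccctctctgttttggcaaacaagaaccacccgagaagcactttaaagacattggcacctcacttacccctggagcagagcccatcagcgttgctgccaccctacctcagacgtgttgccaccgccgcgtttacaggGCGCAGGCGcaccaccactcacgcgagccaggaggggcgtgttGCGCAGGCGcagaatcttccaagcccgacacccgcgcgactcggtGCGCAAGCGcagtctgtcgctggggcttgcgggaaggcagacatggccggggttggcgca
Cox7b: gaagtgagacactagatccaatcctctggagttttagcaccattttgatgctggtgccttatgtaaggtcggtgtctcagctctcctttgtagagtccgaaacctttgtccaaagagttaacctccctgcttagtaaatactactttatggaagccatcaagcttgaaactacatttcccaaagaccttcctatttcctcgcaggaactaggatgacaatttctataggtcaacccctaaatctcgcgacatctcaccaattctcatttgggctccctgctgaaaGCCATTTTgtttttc
The Cycs match begins 61 bases before the gene start and those of Sdha 98, 55 and 10 bases before it. The Cox7b match lies after the start. Cycs and Sdha thus hold NRF1 letters and Cox7b YY1 letters, and the 3 genes differed by 0.03, -0.18 and -0.15 between the groups.

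Transcripts of the chain were slightly lower on average in irradiated mice, and no gene of it passed the test. Of the 29 genes, 26 were lower in irradiated mice (89.7%), where 57.8% of all genes tested were lower. The median difference was -0.10, beside -0.03 over all genes. By limma with Benjamini-Hochberg adjustment 0 of the 29 passed an adjusted p of 0.05, as did 0 of all 22180 genes (0%). At an unadjusted p under 0.05 there were also 0 members in either direction, beside 4.03% of all genes on the lower side and 2.05% on the higher side. The smallest adjusted p of a member was 0.822, and 95% intervals of the members reached a median of 0.25 to either side.

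The mean over the 29 genes read 9.61, 9.84, 9.66 and 9.73 for sham mice 1 to 4, and for irradiated mice 1 to 4 it read 9.76, 9.54, 9.58 and 9.55. Mice are given in this order throughout. Irradiated mice 2, 3 and 4 lay below every sham mouse, while irradiated mouse 1 lay above every sham mouse but mouse 2. The group means were 9.71 ± 0.10 and 9.61 ± 0.11 (SD over 4 mice), a difference of -0.10 that is about as large as the spread between mice. Sham mouse 2 was the highest of all 8 mice in 15 of the 29 genes and stood above the mean of the 8 in all 29. Irradiated mice 2, 3 and 4 were the lowest in 7, 7 and 9 genes. The difference was -0.15 without irradiated mouse 1 (28 of 29 lower) and -0.06 without sham mouse 2 (26 lower).

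The arrays with the most T and NK cell RNA were sham mice 2 and 3, and without both of them the mean difference was -0.06, with 21 of 29 genes lower beside 60% of all genes. With the T and NK marker mean as a covariate it was -0.07, with 23 lower beside 59.5% of all genes. In RNA from sorted cells, fewer cells of a type and less RNA per cell cannot be told apart. On the monocyte and macrophage list, 14 of 15 genes measured, 6 were lower and 8 higher, with means of 11.15 to 11.33 in sham and 11.03 to 11.39 in irradiated mice.

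**Figure D1:**
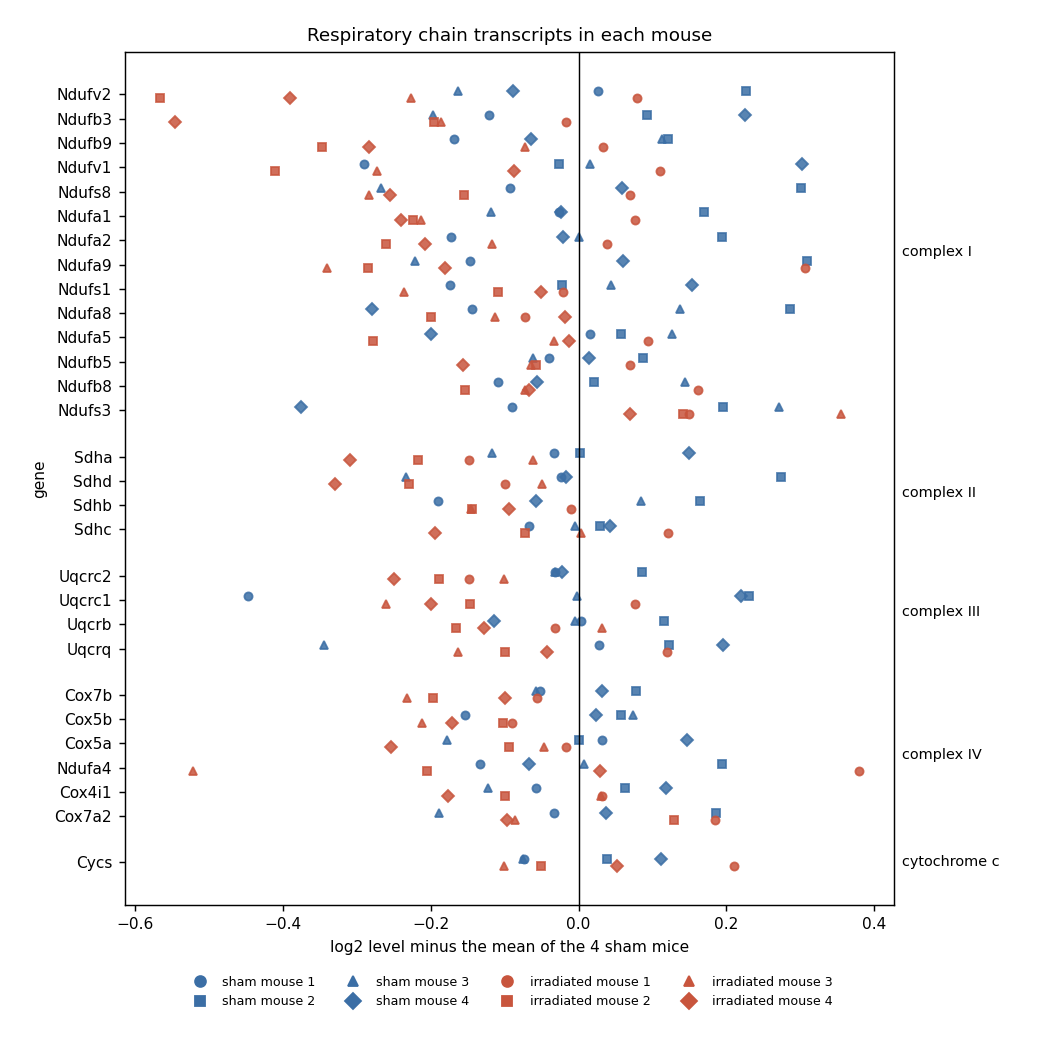
Each symbol is 1 mouse, placed by its log2 level minus the mean of the 4 sham mice for that gene, with genes in rows grouped by complex. Sham mouse 2 (blue squares) lies to the right of 0 in most rows, irradiated mouse 1 (red circles) lies within or near the sham range in most rows, and the groups are apart only for Uqcrc2.

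Complex I, which takes electrons from NADH, had 13 of 14 measured members lower, with a median difference of -0.13. Its mean read 9.10, 9.36, 9.20 and 9.19 for the sham mice and 9.29, 8.99, 9.08 and 9.04 for the irradiated mice, so the groups overlapped. The difference of -0.11 became -0.07 without sham mouse 2 and -0.18 without irradiated mouse 1.

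Ndufv2, an iron-sulphur subunit of the part that oxidises NADH, showed the largest difference of the chain. It stood at 9.41, 9.61, 9.22 and 9.29 in sham mice and at 9.46, 8.82, 9.16 and 8.99 in irradiated mice. Irradiated mouse 1 lay within the sham range and the other irradiated mice below it. The difference was -0.28 ± 0.15 (SE), which its 95% interval placed between 0.656-fold and 1.04-fold (limma adjusted p = 0.827). It was -0.18 without irradiated mouse 2.

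Ndufb3, an accessory subunit of the membrane arm, stood at 9.004, 9.22, 8.93 and 9.35 in sham mice and at 9.11, 8.93, 8.94 and 8.58 in irradiated mice. Only irradiated mouse 4 lay clearly below the sham range, and the difference of -0.24 ± 0.14 (SE) was -0.13 without it. Ndufb9, another accessory subunit of that arm, stood at 10.46, 10.75, 10.74 and 10.56 in sham and 10.66, 10.28, 10.56 and 10.35 in irradiated mice. Here irradiated mice 2 and 4 lay below all sham mice (difference -0.17 ± 0.12, SE, or -0.11 without irradiated mouse 2).

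Ndufa1, a small membrane subunit encoded on the X chromosome, stood at 11.39, 11.58, 11.30 and 11.39 in sham mice. In irradiated mice it stood at 11.49, 11.19, 11.20 and 11.17, so that irradiated mouse 1 stood apart from 3 closely spaced values below all sham mice. The difference was -0.15 ± 0.11 (SE), or -0.23 without irradiated mouse 1 and -0.09 without sham mouse 2.

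Ndufs3, a core subunit near the quinone site, was the only complex I member that was higher in irradiated mice. It stood at 6.74, 7.03, 7.10 and 6.46 in sham mice and at 6.98, 6.97, 7.19 and 6.90 in irradiated mice. Sham mice 4 and 1 were the lowest of the 8, and the other sham mice lay within the irradiated range. The difference of 0.18 ± 0.15 (SE) dropped to 0.05 once sham mouse 4 was left out, and was 0.27 without sham mouse 3. With sham mice 2 and 3 left out it was 0.41 (unadjusted p = 0.02, adjusted p = 0.743, limma).

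The other 9 members of complex I differed by -0.17 to -0.03. Among them Ndufv1, which binds NADH and the flavin, differed by -0.17 ± 0.15 (SE), and Ndufs1, the large iron-sulphur subunit, by -0.10 ± 0.11. Ndufs8, a core subunit that carries iron-sulphur clusters, differed by -0.16 ± 0.14. The accessory subunits Ndufa2, Ndufa9, Ndufa8, Ndufa5, Ndufb5 and Ndufb8 differed by -0.14, -0.12, -0.10, -0.06, -0.05 and -0.03. All of these groups overlapped. Several of these values rested on 1 mouse: without sham mouse 2 the difference was -0.0722 for Ndufa2, -0.0219 for Ndufa9, -0.0056 for Ndufa8 and -0.0559 for Ndufs8. Without sham mouse 4 it was -0.0646 for Ndufv1 and -0.0533 for Ndufs1.

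Complex II, the succinate dehydrogenase that links the citric acid cycle to the chain, had all 4 members lower. Its mean was 8.80, 8.99, 8.81 and 8.91 in sham mice and 8.84, 8.71, 8.81 and 8.65 in irradiated mice, a difference of -0.12 that was -0.08 without sham mouse 2. Sdha, the flavoprotein that oxidises succinate, stood at 9.59, 9.62, 9.51 and 9.77 in sham and 9.47, 9.41, 9.56 and 9.31 in irradiated mice. All but irradiated mouse 3 lay below the sham range, and the difference was -0.18 ± 0.10 (SE; limma adjusted p = 0.827).

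Sdhd, a membrane anchor of complex II, stood at 8.47, 8.77, 8.26 and 8.48 in sham and 8.40, 8.27, 8.45 and 8.17 in irradiated mice. Sham mouse 2 was high and sham mouse 3 low, and the difference of -0.18 ± 0.13 (SE) was -0.09 without sham mouse 2. The iron-sulphur subunit Sdhb differed by -0.10 ± 0.11 and the other anchor, Sdhc, by -0.04 ± 0.10.

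The citric acid cycle enzymes that act beside complex II were lower too, in 11 of 12 measured genes, with a median of -0.11. Fh1, the fumarate hydratase that takes up the product of complex II, stood at 9.24, 9.23, 9.28 and 9.35 in sham and 8.79, 8.83, 8.76 and 8.76 in irradiated mice. Its groups did not overlap, and its difference of -0.49 ± 0.09 (SE; limma adjusted p = 0.545) was larger than that of any complex II subunit. Idh3a, a subunit of the NAD-linked isocitrate dehydrogenase, differed by -0.59 ± 0.17 with no overlap (limma adjusted p = 0.819). Neither passed over all genes.

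Complex III, which hands electrons from ubiquinol to cytochrome c, had all 4 members lower, with a mean difference of -0.11, or -0.06 without sham mouse 2. Its mean was 9.63, 9.88, 9.64 and 9.81 in sham mice and 9.74, 9.59, 9.62 and 9.58 in irradiated mice. Uqcrc2, a core protein of the matrix side, stood at 9.25, 9.37, 9.25 and 9.26 in sham and 9.14, 9.10, 9.19 and 9.04 in irradiated mice. It was the only member of the 29 whose groups did not overlap, beside 2.56% of all genes with all irradiated mice lower and 1.12% with all higher. The gap was small, and the difference was -0.17 ± 0.09 (SE; 95% interval -0.37 to 0.03; limma adjusted p = 0.822).

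Uqcrc1, the partner core protein, stood at 8.28, 8.96, 8.73 and 8.95 in sham and 8.81, 8.58, 8.47 and 8.53 in irradiated mice. Sham mouse 1 was the lowest of all 8 mice while sham mice 2 and 4 were the highest, and the difference of -0.13 ± 0.16 (SE) was -0.28 without sham mouse 1 (unadjusted p = 0.0499, adjusted p = 0.783, limma). Leaving out sham mouse 2 gave -0.06. The small subunits Uqcrb and Uqcrq differed by -0.07 and -0.05, with SE of 0.10 and 0.13.

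Complex IV, the cytochrome c oxidase, had 5 of 6 measured members lower, with a mean difference of -0.08 that was -0.05 without sham mouse 2, -0.05 without irradiated mouse 3 and -0.13 without irradiated mouse 1. Ndufa4 is counted here because its protein, first described with complex I, is now placed in complex IV. Cox7b, a small subunit encoded on the X chromosome, stood at 11.18, 11.31, 11.17 and 11.26 in sham and 11.17, 11.03, 11.00 and 11.13 in irradiated mice. The highest irradiated value met the lowest sham values, and the difference was -0.15 ± 0.09 (SE).

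A dimmer row annotated to Cox7b gave a larger difference. It stood at 6.62, 6.37, 5.99 and 6.55 in sham mice and at 5.77, 5.82, 6.09 and 5.84 in irradiated mice, with overlap only between sham mouse 3 and irradiated mouse 3. Its difference was -0.51 ± 0.15 (SE; unadjusted p = 0.00702, and adjusted p = 0.847 over all rows, limma). The rows of Cox7b thus differed in size but not in direction, as did both rows of Cox5b (-0.14 and -0.09) and of Ndufa8 (-0.10 and -0.19).

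Cox5b, a zinc-binding subunit on the matrix side, stood at 10.31, 10.52, 10.53 and 10.48 in sham and 10.37, 10.36, 10.25 and 10.29 in irradiated mice. Sham mouse 1 lay among the irradiated mice, and the difference was -0.14 ± 0.10 (SE). Cox5a, its neighbour in the complex, stood at 11.22, 11.19, 11.01 and 11.34 in sham and 11.17, 11.09, 11.14 and 10.94 in irradiated mice. Its groups overlapped widely (difference -0.10 ± 0.11, SE, or -0.05 without irradiated mouse 4 and -0.16 without sham mouse 3).

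Of the other complex IV members, the regulatory subunit Cox4i1 differed by -0.05 ± 0.10 (SE) and the widely expressed isoform Cox7a2 by 0.03 ± 0.12. Ndufa4 spread over a wide range in irradiated mice, at 11.53, 10.95, 10.63 and 11.18, against 11.02 to 11.35 in sham mice. Its difference of -0.08 ± 0.18 was 0.07 without irradiated mouse 3 and -0.23 without irradiated mouse 1.

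Cycs encodes cytochrome c, the soluble carrier between complexes III and IV, which also activates caspases when released from mitochondria. It stood at 11.16, 11.27, 11.16 and 11.34 in sham and 11.44, 11.18, 11.13 and 11.28 in irradiated mice, with irradiated mouse 1 the highest. The difference was 0.03 ± 0.10 (SE; 95% interval -0.21 to 0.26). Of its 5 rows, 2 hold identical values at a difference of -0.05, and the others gave 0.03, 0.03 and 0.05. Genes with near-identical copies elsewhere in the genome, as cytochrome c is known to have, may share signal between copies on arrays.

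**Figure D2:**
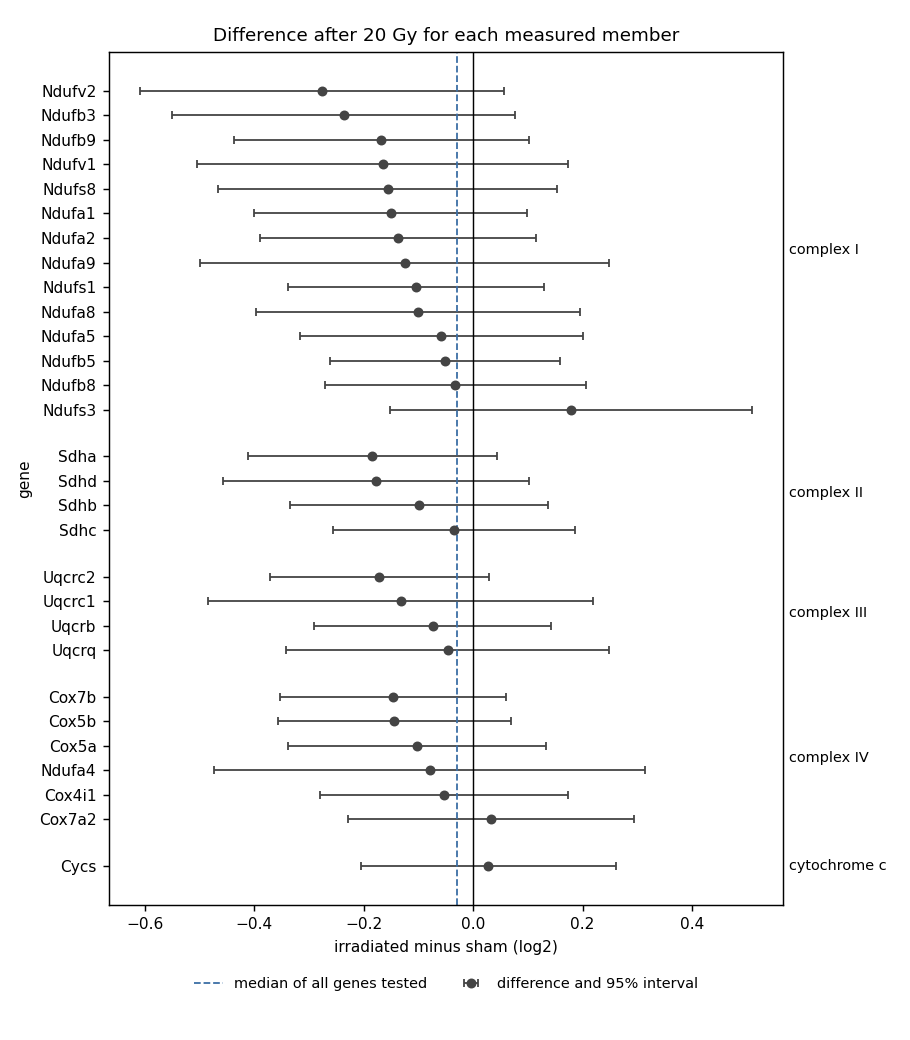
Each point is a gene's difference, in log2 units from sham to irradiated mice, with its 95% interval from limma, grouped by complex; the dashed line is the median of all genes at -0.03. Most points lie left of 0, Ndufs3, Cox7a2 and Cycs lie right of it, and every interval includes 0.

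Most subunits of the same complexes that were not members were lower as well. Of the other complex I subunits 16 of 18 measured were lower, with a median of -0.11. Those with the smallest p-values were Ndufb10 (-0.18 ± 0.12, SE) and Ndufc1 (-0.19 ± 0.13), and the largest difference in the list was -0.25. Without sham mouse 2, 14 of these 18 were lower, with a median of -0.08. Without sham mice 2 and 3, 12 were lower, with a median of -0.05, beside 60% of all genes. Of the other complex III subunits 3 of 4 were lower, with a median of -0.04 that lies close to that of all genes. Without sham mouse 2 that median was 0.0053, with 2 of 4 lower, without irradiated mouse 4 it was 0.0072, and under quantile normalization it was 0.0079. Uqcr11, a small subunit, differed by -0.25 ± 0.11 (unadjusted p = 0.0486, adjusted p = 0.821, limma), or -0.17 without sham mouse 2, while Cyc1, which carries the haem of cytochrome c1, differed by 0.08 ± 0.13. Of the other complex IV subunits 3 of 4 were lower, with a median of -0.05, or -0.0235 without sham mouse 2. Cox7c differed by -0.24 ± 0.15 (SE) and Cox8a by -0.06 ± 0.10.

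ATP synthase, which uses the gradient that the chain builds, had 15 of 16 subunit or inhibitor genes lower, with a median of -0.09. Its list mean was 9.57, 9.69, 9.53 and 9.68 in sham and 9.58, 9.51, 9.55 and 9.48 in irradiated mice. Atpif1, the inhibitor of reverse ATP synthase activity, differed by -0.20 ± 0.11 (SE) and Atp5c1, the central stalk subunit, by -0.18 ± 0.11. None of the 16 had an unadjusted p under 0.05.

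The genes that mitochondrial DNA itself encodes had nearly the same mean level in both groups with all 8 mice. Their list mean, over 10 of 13 genes measured, was 12.42, 12.27, 12.36 and 12.36 in sham mice and 12.27, 12.33, 12.35 and 12.38 in irradiated mice, a difference of -0.02. Of the 10 genes, 7 were lower, beside 57.8% of all genes, with a median of -0.03. Leaving out sham mouse 1 turned the mean difference to 0.01. Leaving out sham mouse 2 gave -0.04, with 9 of 10 lower. Without sham mice 2 and 3 it was -0.05, again with 9 of 10 lower, where that of the 29 nuclear members was -0.06. Sham mouse 2 and irradiated mouse 1, which were highest for the nuclear members, were the lowest of the 8 mice here. ND4, a complex I subunit, differed by 0.07 ± 0.10 (SE) and COX3, of complex IV, by -0.06 ± 0.09. These levels lie near the top of the arrays' range, where the highest gene mean was 13.06, and how far a change could register there was not tested. The contrast between nuclear and mitochondrial genes was not tested either.

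Genes that build the chain were mostly lower too. Of the assembly factors for complexes I to IV 32 of 41 were lower, with a median of -0.15, and 5 had an unadjusted p under 0.05 on the lower side (12.2%, beside 4.03% of all genes). Ndufaf4, a complex I assembly factor, differed by -0.35 ± 0.13 (SE), and Uqcc3, of complex III assembly, by -0.32 ± 0.12 with no overlap of the groups. Of the mitochondrial ribosomal protein genes, which serve translation of the mitochondrial subunits, 31 of 35 were lower, with a median of -0.15, and 7 had an unadjusted p under 0.05 (20.0%). Mrps22 differed by -0.36 ± 0.11 and Mrpl27 by -0.33 ± 0.10, each with no overlap. Mrpl27 read low: its mean over all 8 mice was 4.67, the lowest on that list and just below the median of all rows (4.70). All of these genes had a limma adjusted p of 0.819 or more.

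Mitochondrial ribosomal protein means were 7.49, 7.70, 7.52 and 7.60 in sham and 7.53, 7.32, 7.43 and 7.42 in irradiated mice. As with the members, irradiated mouse 1 lay within the sham range and the other irradiated mice below it. Without sham mice 2 and 3, 27 of the 35 were lower, and 29 of the 41 assembly factors. The median over the ribosomal proteins was -0.08 without sham mouse 2, and that over the assembly factors was -0.09 without irradiated mouse 2.

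Of the regulators of mitochondrial biogenesis 7 of 12 were higher in irradiated mice, with a median of 0.03 whose sign depended on single mice. It was -0.0242 without sham mouse 3, -0.0113 without sham mouse 4, -0.0322 without irradiated mouse 3, and -0.0313 with dim genes left out. The transcription factors behind the motifs above, Nrf1, Gabpa and Yy1, chosen for that reason and not by their values, differed by -0.07 ± 0.10, -0.09 ± 0.14 and -0.08 ± 0.09 (SE). Tfeb, a regulator of lysosome and mitochondrial genes, differed by 0.19 ± 0.12 and Perm1 by 0.16 ± 0.13. Both read low: the sham and irradiated means were 3.74 and 3.91 for Perm1, below the median of all rows (4.70). For Tfeb they were 4.96 and 5.15. Of the genes that maintain and express mitochondrial DNA 9 of 15 were lower, with a median of -0.04. Here too the sign depended on single mice, with a median of 0.018 without sham mouse 2 and 0.0276 without irradiated mouse 2 (7 of 15 lower each time). Tfam, the packaging and transcription factor of mitochondrial DNA, differed by -0.37 ± 0.19, or -0.25 without irradiated mouse 2. In the same list Tfb2m, a mitochondrial transcription factor, differed by -0.42 ± 0.22, or -0.19 without irradiated mouse 2.

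Genes of ubiquinone synthesis and of other electron donors to it were lower in 13 of 15, with a median of -0.11. Sqor, the sulphide quinone oxidoreductase, differed by -0.25 ± 0.11 (SE; unadjusted p = 0.0493, adjusted p = 0.821, limma) and Coq8a, a ubiquinone synthesis gene, by -0.27 ± 0.13. Cytosolic ribosomal protein genes, listed as abundant transcripts with no part in mitochondria, were lower in 16 of 20, with a median of -0.07. That median was -0.0456 with the mean of a gene's rows (13 of 20 lower) and -0.0424 without sham mouse 2 (14 lower). Gene means on this list ran from 4.73 to 12.72, so not every row used for it read as abundant. Rpl5 and Rps14 had sham means of 6.24 and 5.96. Rpl5 differed by -0.52 ± 0.25, or -0.23 without irradiated mouse 2, and Rps14 by -0.18 ± 0.11. Among all genes with a mean of at least 4.70, the median difference was -0.04 and 60.9% were lower.

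**Figure D3:**
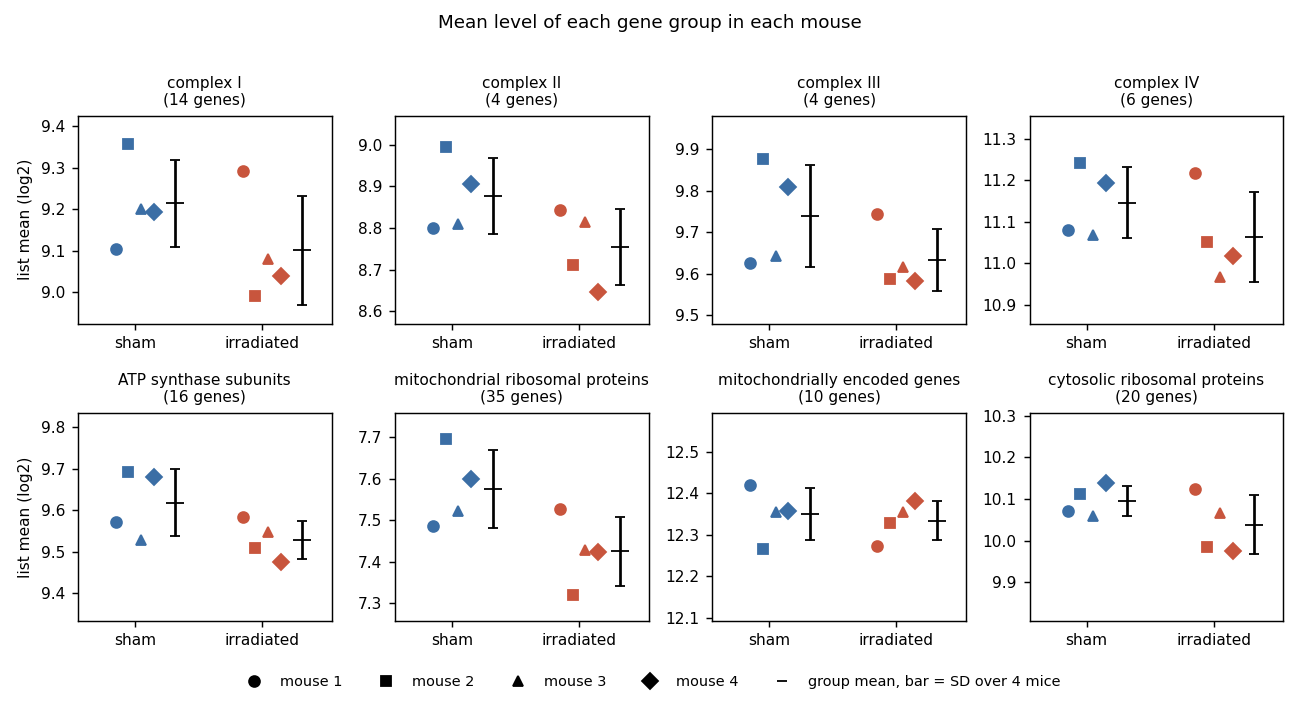
Each panel shows 1 gene group: symbols are the mean log2 level of the group in 1 mouse, and black bars are the group mean with the SD over 4 mice. In complexes I to IV, ATP synthase and mitochondrial ribosomal proteins sham mouse 2 is highest and irradiated mice 2 to 4 are mostly low, whereas for mitochondrially encoded genes sham mouse 2 and irradiated mouse 1 are lowest.

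**Figure D4:**
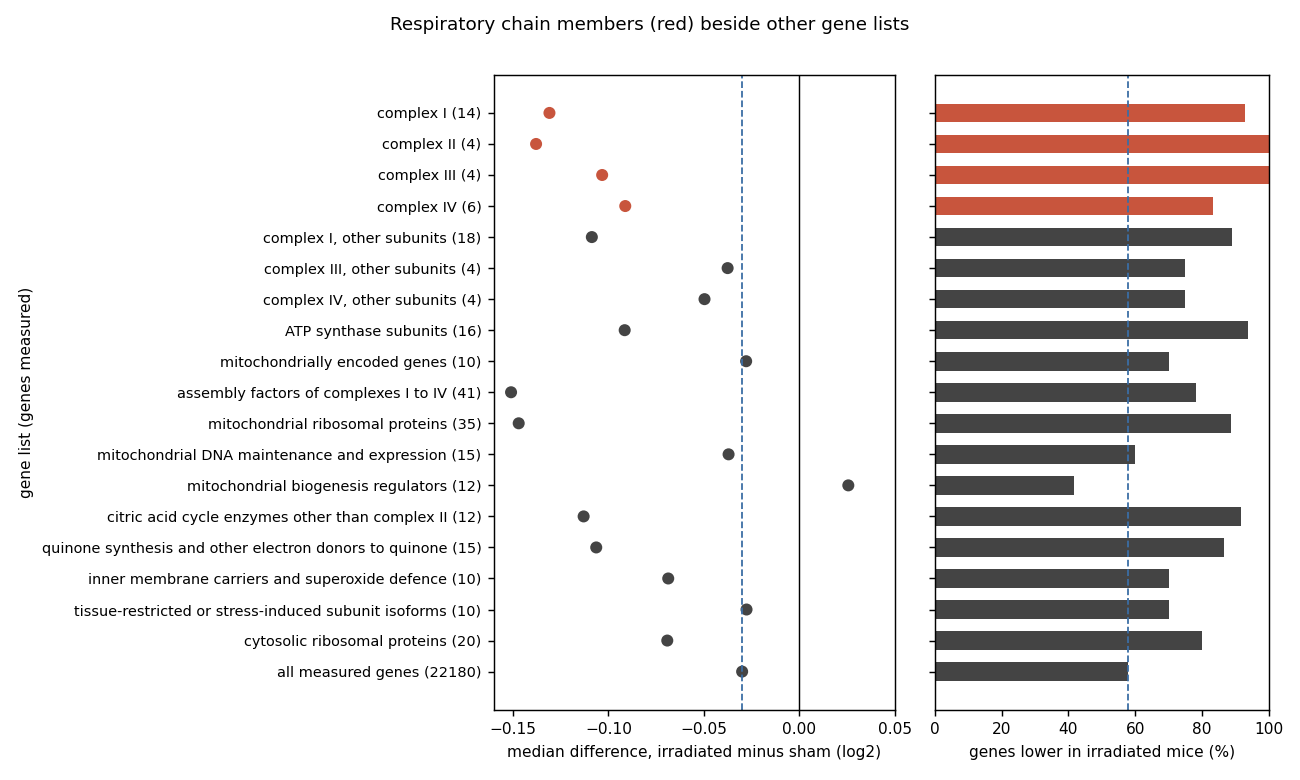
Left, the median difference (irradiated minus sham, log2) of each gene list; right, the percentage of its genes that were lower in irradiated mice. Red marks the members by complex and the dashed lines mark all genes, at -0.03 and 57.8%. In the left panel the 4 complexes, assembly factors, mitochondrial ribosomal proteins and citric acid cycle enzymes lie left of the dashed line. Cytosolic ribosomal proteins, with no part in mitochondria, lie left of it as well, at -0.07, with 80% of genes lower. Biogenesis regulators lie right of it.

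With all 8 mice, the T and NK, neutrophil, B and dendritic cell lists had larger median differences than the members, and these depended in part on single mice. T and NK markers were lower in 19 of 21 genes, with a median of -0.54. It was -0.22 without sham mouse 3, -0.29 without sham mouse 2 and -0.28 without irradiated mouse 3, and turned to 0.36, with 3 of 21 lower, without sham mice 2 and 3. Klrd1, with the smallest p in that list, differed by -0.81 ± 0.27 (SE). Neutrophil markers were lower in 13 of 15 (median -0.75), B and plasma cell markers in 8 of 10 (median -0.41) and dendritic cell markers in 5 of 7 (median -0.19). Without sham mouse 3 these medians were -0.33, -0.14 and -0.0941, the dendritic cell median was -0.041 without irradiated mouse 3, and the B cell median was 0.0726 without sham mice 2 and 3. Epithelial tumour cell markers were lower in 5 of 8 (median -0.07), fibroblast and endothelial markers in 4 of 10 (median 0.03) and muscle and fat markers in 2 of 8 (median 0.11). The epithelial median turned to 0.20 without sham mouse 3 and 0.17 without irradiated mouse 2, and the fibroblast and endothelial median to -0.13 without sham mouse 1. The muscle and fat median was 0.0511 without irradiated mouse 2, and 0.0106 over the 3 genes that remained with dim genes left out. Gene means on the muscle and fat list ran only from 3.52 to 5.02, near or below the median of all rows. The only red cell marker measured, Slc4a1, differed by -0.14 ± 0.13. Apart from the T and NK covariate and the arrays left out above, the part of these cells in the members' values was not tested.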

How the data were processed

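RNA was amplified from 25 ng per sample by ribo-SPIA, per the labels' protocols. The values the authors deposited were taken as log2, from their range. RMA and Partek are named in the submitters' processing notes, and no version or setting of either was at hand. Of 34365 rows, 23521 had 1 gene symbol, 1814 several and 9030 none, by the platform annotation. The brightest row of each symbol was kept, giving 22180 genes, of which 21994 have an Entrez identifier in the RefSeq table. No filter on low values was applied. Precision is limited by having 4 arrays in each group.

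Groups came from the sample titles. They were compared over all genes with limma 3.58.1 in R 4.3.3 (lmFit, eBayes, two-sided, Benjamini-Hochberg adjustment, threshold 0.05). The fit was also run on simulated data with independent noise and added changes larger than the difference of any member. That run does not show whether differences as small as those of the members can be detected. Complex and list means carry no test. The members, 14 pathway lists, 9 cell type lists (316 of 348 genes measured) and motifs were chosen with earlier results of these data known. Genes given for every mouse were those with the smallest p in each complex (4, 2, 2 and 3), Cycs, any with groups apart and the largest positive difference. Of each other list the 2 genes with the smallest p could be named. Ptprc, Itgam, Ly6c2 and Fh1 were added. Yy1, Nrf1 and Gabpa were named outside this rule. Promoter sequences are RefSeq's, GRCm38.p6. Plots used matplotlib 3.10.9. Alternatives were other normalizations, row choices and variance settings, a filter on dim genes, the mouse number as a block, the T and NK mean as a covariate and arrays left out.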

Additional observations from a re-analysis of the deposited data

Results flagged for a closer look

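In 6 of the 162 sets of 4 mice examined, 1 mouse lay far from the other 3 by Dixon's test; chance gives about 1 in 20. Of these 6, 2 concern respiratory chain members. For Ndufa1 this was irradiated mouse 1 at 11.49, where the rest of its group lay at 11.17 to 11.20. For Uqcrc2 it was sham mouse 2 at 9.37, where the rest lay at 9.25 to 9.26. Outside the members, Cox7c stood at 7.38 in irradiated mouse 4 (others 7.69 to 7.74) and Mrpl27 at 4.64 in irradiated mouse 1 (others 4.44 to 4.48). In sham mouse 3, Ndufa4l2 stood at 5.50 (others 4.42 to 4.55) and Tfb2m at 9.29 (others 8.94 to 8.95).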

How the results depend on the processing

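No member passed the adjusted threshold in limma under any of the 18 alternatives. The count over all genes was 0 to 1 with each mouse left out; the 1 was H2ac15, without irradiated mouse 1. The count of members lower at an unadjusted p under 0.05 was 0, and 0 to 1 with each mouse left out (Uqcrc1 without sham mouse 1, Ndufv2 without irradiated mouse 1). It was 1 with the mean of a gene's rows, Cox7b at -0.33 (adjusted p = 0.823). Between 21 and 28 members were lower under all alternatives, and the members' mean difference ran from -0.15 to -0.06; under quantile normalization it was -0.06, with the median of all genes at 0.00. With Ndufa4 counted in complex I, the mean difference of complex I was -0.11 and of complex IV -0.08. The numbers were not taken as pairs in the main fit, because nothing in the labels says that they pair the mice. The mouse number as a replicate block gave 0 calls. It cannot change the members' mean difference of -0.10, because each number occurs once in each group. Trended and robust variance, a test over all rows and the filter on dim genes cannot change the members' differences either. Same-numbered mice did not deviate together (correlations -0.28 to -0.14). The following differences changed sign, and the cause was not tested. Quantile normalization gave 0.0101 for Ndufb8 and 0.0062 for Sdhc, and the mean of rows gave -3e-04 for Cycs. The T and NK covariate gave 0.0027 for Ndufa5, 0.026 for Ndufb8 and 0.039 for Ndufa4. Without sham mice 2 and 3, Ndufa8 was at 0.11, Ndufa5 at 0.034, Ndufb8 at 0.05, Sdhb at 0.0253, Ndufa4 at 0.021 and Cldn4 at 8e-04. The neutrophil gene Camp, at -2.77 with all mice, was at 0.15 without those mice. With single mice left out, differences ranged from -0.12 to 0.0154 for Ndufa5, -0.0977 to 0.0154 for Ndufb8, -0.0875 to 0.0176 for Sdhc, -0.16 to 0.0183 for Uqcrq, -0.23 to 0.0678 for Ndufa4, -0.0305 to 0.0945 for Cox7a2 and -0.0329 to 0.0707 for Cycs. Outside the members they ranged from -0.0207 to 0.171 for Cyc1, -0.0054 to 0.705 for Col3a1, -0.0636 to 0.0065 for Ptprc and -0.0204 to 0.539 for Ly6c2.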

Other observations

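Genes listed as subunit isoforms or relatives, mostly known from other tissues or from stress, were lower in 7 of 10, with a median of -0.03. The median turned to 0.0351 when sham mouse 2 was left out and to 0.008 when sham mouse 4 was. With dim genes left out, 3 of 5 were lower, with a median of -0.017. Of the 10 genes, 0 had an unadjusted p under 0.05 in limma. Cox6b2, the testis form of a complex IV subunit, differed by 0.47 ± 0.24 (SE), or 0.19 without irradiated mouse 3. Ndufa4l2, a hypoxia-induced relative of Ndufa4, differed by -0.35 ± 0.24, or -0.0906 without sham mouse 3. Carriers of the inner membrane and superoxide defence genes were lower in 7 of 10, with a median of -0.07. Slc25a1, the citrate carrier, differed by -0.15 ± 0.12 and Slc25a20, the carnitine carrier of fatty acid oxidation, by 0.18 ± 0.14, or 0.0591 without sham mouse 3.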
